A study of Mus musculus with 45 samples.

Results

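The 9 genes described here encode the transporters that carry bile acids and biliary lipids through the hepatocyte, and the data are the binding sites of REV-ERBα around them in mouse liver. Peaks were assigned to a gene when their summit lay inside its span on the mouse build mm10 or within 50 kb of it, and 52 of the 27929 peaks at zeitgeber time 10 (ZT10, hour 10 of the light-dark cycle) and 0 of the 36 peaks at ZT22 met this rule. The genes are 9 of the 21631 protein-coding genes that were placed on the autosomes and X. Both peak lists come from chromatin immunoprecipitation with sequencing (ChIP-seq) on liver of REV-ERBa3HA/3HA mice, whose own REV-ERBα carries a 3HA epitope tag, with anti-HA magnetic beads and no AAV vector, from 4 samples at ZT10 and 4 at ZT22 that the authors pooled per time. Age, sex and strain background of these mice are not given in the sources used here. The remaining 37 of the 45 samples, which include input and anti-HA on untagged B6-WT liver, were not analysed here. With 1 pooled list per time there were no replicates, so no p-value was computed and intervals cover counting error only. The lists hold no expression values and come from nuclei of whole liver, so the cell types behind a peak could not be told apart and the labelled tissue was not tested against markers.

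Hepatocytes take bile acids up from portal blood across the basolateral membrane, through the sodium-dependent carrier Slc10a1 (NTCP) and the sodium-independent organic anion carriers of the Slco1 family, Slco1b2, Slco1a1 and Slco1a4. At the canalicular membrane Abcb11 (the bile salt export pump, BSEP) secretes bile salts, Abcc2 (MRP2) secretes bilirubin glucuronides and other conjugates, Abcb4 moves phosphatidylcholine to the outer leaflet, and the half-transporters Abcg5 and Abcg8 form the heterodimer that exports sterols. REV-ERBα is a nuclear receptor of the circadian clock that represses transcription with the NCOR corepressor and binds DNA at AGGTCA half-sites. In mouse liver it is most abundant in the light phase, and bile acid metabolism is known to follow the daily cycle of feeding.

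All 9 genes had a listed start under a ZT10 peak, and a choice of their promoter windows is printed here. Some were chosen for their half-sites, so the printed windows do not stand for all listed windows. Each runs from 250 bases before to 50 bases after a listed start, comes from RefSeq (build GRCm38.p6, which shares its coordinates with mm10) and is written 5′ to 3′ along the gene. Capitals mark AGGTCA or its complement TGACCT. Abcb11 is shown for the strongest start-proximal peak, Slc10a1 for the only window that held a summit, Slco1a1 for its pair of half-sites, Abcc2 for its half-site under a wide peak, and Abcg8 because its window and that of Abcg5 overlap between the head-to-head genes.
Abcb11 (chr2:69342567-69342866, minus strand): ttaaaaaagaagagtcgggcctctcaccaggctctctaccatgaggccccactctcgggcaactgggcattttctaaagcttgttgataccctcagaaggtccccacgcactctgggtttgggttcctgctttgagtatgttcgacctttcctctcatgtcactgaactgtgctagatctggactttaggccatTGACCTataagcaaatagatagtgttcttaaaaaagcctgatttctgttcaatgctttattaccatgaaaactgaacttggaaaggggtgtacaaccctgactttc
Slc10a1 inner start (chr12:80968030-80968329, minus strand): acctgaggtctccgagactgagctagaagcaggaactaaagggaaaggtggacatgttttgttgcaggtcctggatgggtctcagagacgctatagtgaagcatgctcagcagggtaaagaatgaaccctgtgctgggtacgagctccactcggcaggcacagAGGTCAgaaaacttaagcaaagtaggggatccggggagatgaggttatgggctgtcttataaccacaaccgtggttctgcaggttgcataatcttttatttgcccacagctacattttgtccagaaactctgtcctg
Slco1a1 (chr6:141946913-141947212, minus strand): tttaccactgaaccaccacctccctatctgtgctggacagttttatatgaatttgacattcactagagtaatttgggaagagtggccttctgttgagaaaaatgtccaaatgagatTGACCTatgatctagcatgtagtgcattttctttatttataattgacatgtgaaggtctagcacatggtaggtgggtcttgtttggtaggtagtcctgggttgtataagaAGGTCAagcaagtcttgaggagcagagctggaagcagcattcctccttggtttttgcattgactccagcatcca
Abcc2 (chr19:43782058-43782357, plus strand): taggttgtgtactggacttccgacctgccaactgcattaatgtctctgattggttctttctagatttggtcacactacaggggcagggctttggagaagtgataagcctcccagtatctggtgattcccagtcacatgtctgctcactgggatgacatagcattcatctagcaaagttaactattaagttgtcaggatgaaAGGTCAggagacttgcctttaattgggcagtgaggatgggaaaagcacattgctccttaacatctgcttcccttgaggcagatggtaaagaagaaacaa
Abcg8 (chr17:84682871-84683170, plus strand): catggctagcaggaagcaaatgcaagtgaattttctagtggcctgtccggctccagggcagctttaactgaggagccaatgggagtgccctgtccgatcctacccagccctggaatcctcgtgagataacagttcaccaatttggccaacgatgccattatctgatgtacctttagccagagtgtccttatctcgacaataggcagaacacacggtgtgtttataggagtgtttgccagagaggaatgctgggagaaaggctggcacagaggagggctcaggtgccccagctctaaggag

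The half-site AGGTCA, searched on both strands, was present in 5 of the 11 listed windows of the 9 genes, those of Abcb11, Abcc2, Slc10a1, Slco1a1 and Slco1b2, and in 16.3% of all 32851 windows in the table. In Abcb11 it lay at bases -56 to -51 on the opposite strand, and in Abcc2 at -49 to -44 on the strand of the gene. Slco1a1 held the half-site in both orientations, at -134 to -129 and at -24 to -19. The same half-site preceded by T, TAGGTCA, a motif added after the windows had been seen and overlapping the first, was present in the windows of Abcb11 and Slco1a1 and in 2.61% of all windows. The variant GGGTCA (13.7% of all windows), the half-sites AGGTCA (0.219%) and GGGTCA (0.216%) when preceded by AA, any base and T, tandem half-sites 2 bases apart (0.0396%), 1 base apart (0.128%) or 4 bases apart (0.0426%), the inverted repeat with 1 base between (0.0152%), the E-box CACGTG (7.15%), the D-box TTANGTAA (2.32%) and CAAAGTCCA (0.475%) had no match in the 11 windows, where repeats were built from AGGTCA or GGGTCA. A match is a description of the letters in these windows, and sequence under the summits outside them was not analysed here.

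Each of the 9 genes had ZT10 sites, between 4 and 12 of them, and the background for this count is high, since 70.5% of protein-coding genes had at least 1 summit in the same window. At least 4 summits were found at 9 of 9, against 35.5% of protein-coding genes. With a reach of 10 kb in place of 50 kb, at least 4 were left at 4 of 9 (Slc10a1, Abcb4, Abcg5 and Abcg8), against 9.47% of protein-coding genes, while Abcb11, Slco1a1 and Slco1a4 had 1 each. The median was 6 sites per gene and 4.3 per 100 kb of window, against 2 sites and 1.6 per 100 kb over all genes. The bile acid synthesis genes compared below had higher medians, 7 sites and 6.02 per 100 kb, and the other transport genes lower ones, 4 and 2.82. The highest fold of a gene's sites, where fold is the authors' enrichment of the summit over local background, had a median of 19.9 over the 9 genes and 10.0 over the 15244 genes with a site. It is a maximum over all sites of a window, and genes were not matched for their number of sites. A site of fold 15 or more lay near 7 of 9 genes, all but Slco1a1 and Slco1a4, against 18.4% of protein-coding genes. Windows of neighbouring members overlap, so 8 sites are shared by Abcg5 and Abcg8 and 3 by Slco1a1 and Slco1a4, and these genes do not count as independent.

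**Figure D1:**
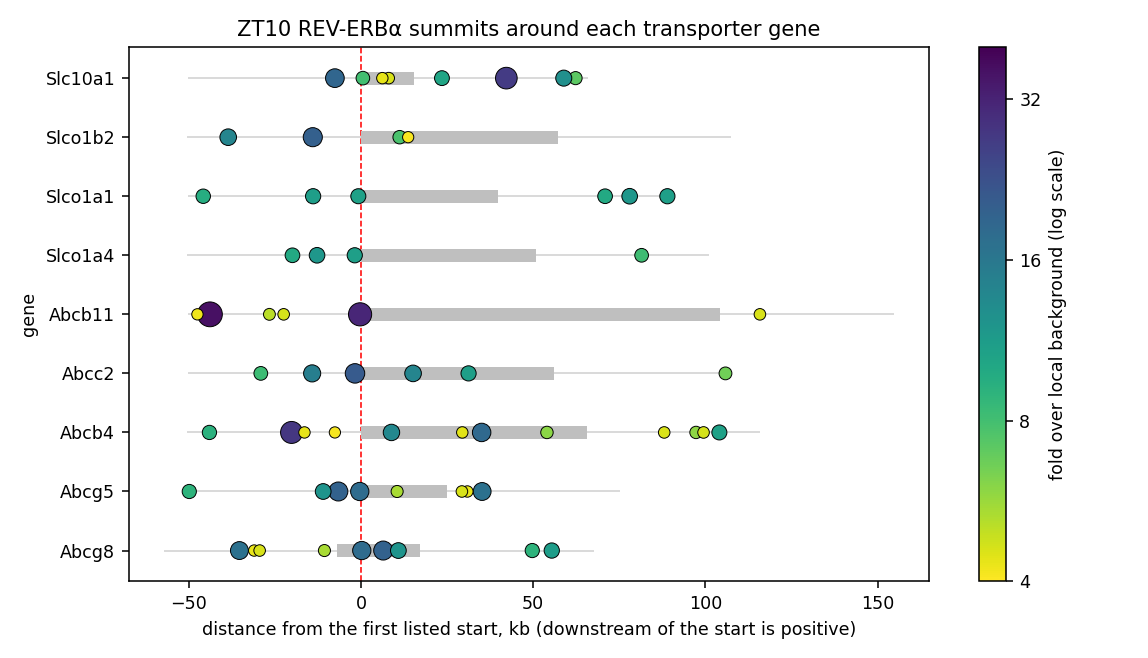
Position of each ZT10 summit relative to the first listed start of each gene, in kb, with downstream positive. Grey bars are gene spans, thin lines the 50 kb on either side, and point size and colour give the fold over local background (log colour scale). Abcb11 has its summits outside the gene span, with folds of 31.2 near the start and 36.4 upstream.

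Within 50 kb the order of the highest folds was Abcb11, Abcb4, Slc10a1, Abcc2, Slco1b2, the pair Abcg5 and Abcg8, and last Slco1a1 and Slco1a4. At Abcb11 the fold of 36.4 (95% Poisson interval 34.0 to 39.1, 789 fragments at the summit) lay above the intervals of all others. Abcb4 at 27.7 (25.5 to 30.0) and Slc10a1 at 26.7 (24.6 to 29.0) overlapped each other and no other gene. Abcc2 at 20.9 (19.0 to 22.9), Slco1b2 at 19.9 (18.0 to 21.8) and Abcg5 with Abcg8 at 19.6 (17.8 to 21.6) did not differ beyond counting error, and Slco1a1 with Slco1a4 at 11.9 (10.5 to 13.4) lay below them. This order depended on the reach. With 10 kb Abcb11 at 31.2 still lay above the intervals of all others, but it was followed by Abcc2 (20.9), Abcg5 with Abcg8 (19.6), Slc10a1 (18.8) and Abcb4 (18.3), whose intervals all overlapped, then by Slco1a4 (11.0) and Slco1a1 (10.7), and Slco1b2 was last at 7.74. With 100 kb the order stayed, but Abcb4 reached 33.9 (31.5 to 36.4), which overlaps the interval of Abcb11. Among genes with a site, the values within 50 kb stood at percentile 98.9 for Abcb11, 96.3 for Abcb4, 95.7 for Slc10a1, 88.9 for Abcc2, 86.9 for Slco1b2, 86.5 for Abcg5 and Abcg8 and 60.6 for Slco1a1 and Slco1a4. The site behind the value had the gene itself as the nearest protein-coding gene at 4 of the 9, Abcc2, Slco1b2, Slco1a4 and Abcg8. The same share of all protein-coding genes is not given here, so this count has no background.

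**Figure D2:**
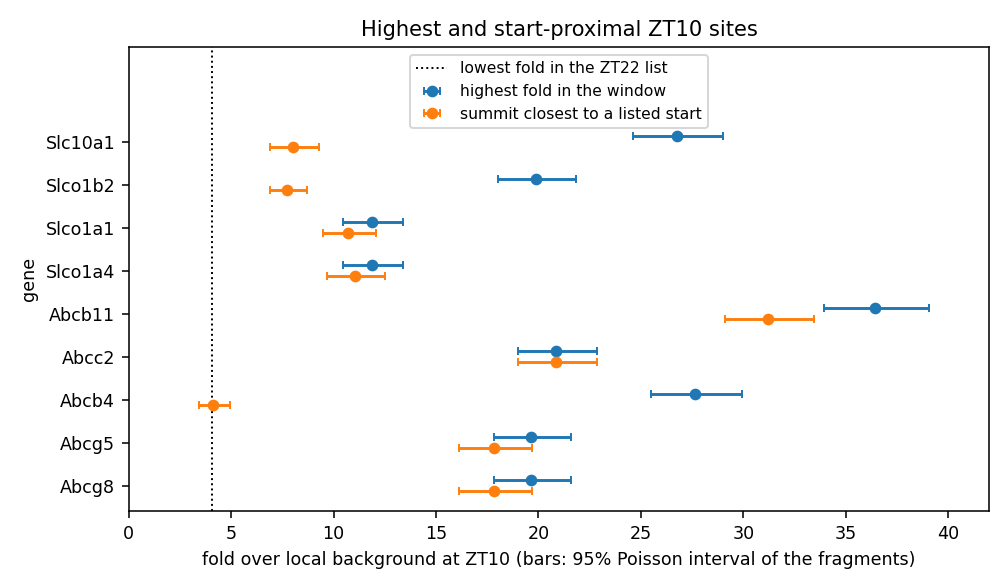
Fold over local background at ZT10 of the site of highest fold (blue) and of the summit closest to a listed start (orange) for each gene, with bars for the 95% Poisson interval of the fragments and a dotted line at the lowest fold of the ZT22 list. Abcc2 has 1 site in both roles, while Slc10a1, Slco1b2 and Abcb4 have a start-proximal fold of 8.003, 7.74 and 4.12 and a stronger site elsewhere.

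Among the uptake carriers, Slc10a1 (chromosome 12, 80953185 to 80968705, minus strand) had the most sites, with 8 in a window of 115.5 kb. Its promoter site was moderate. The peak from 80964356 to 80969454 covered both listed starts, which lie 626 bp apart, with a fold of 8.003 (6.87 to 9.27) and a summit 70 bp upstream of the inner start, inside the second window printed above. The stronger sites lay away from the gene, at 7567 bp upstream of the outer start with a fold of 18.8 (17.1 to 20.7) and at 42199 bp downstream of it with 26.7, where the splicing factor gene Srsf5 is nearer at 18989 bp. Sites of fold 12.7 and 7.13 lay farther downstream beyond Srsf5, with Susd6 as the nearest gene at 29007 and 25585 bp. A site of 10.3 lay 297 bp from Srsf5, and weak sites of 4.60 and 4.37 lay inside Slc10a1. The start-proximal fold was thus lower than that of the next site upstream, 18.8, and higher than that of the next site downstream, 4.37 (3.56 to 5.33), with no overlap of the intervals.

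Slco1b2, which encodes the main OATP1B-type carrier of mouse hepatocytes (chromosome 6, 141629452 to 141686646, plus strand), had 4 sites. The strongest, with a fold of 19.9, lay 13984 bp upstream of the start, between 141610281 and 141616694, and a site of 14.0 lay at 38535 bp upstream, nearer to Slco1c1. The start itself was under a peak of 14583 bp, wider than 99.7% of ZT10 peaks, but its summit lay 11231 bp downstream with a fold of 7.74 (6.89 to 8.67). Local background at that summit was 8.0, against a lowest value of 4.14 in the list, and its 291 fragments (258.5 to 326.4) were close in number to the 300 of the site at 14.0. A weak site of 4.10 inside the gene was the lowest fold among the 52.

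Slco1a1 (chromosome 6, 141907281 to 141946962) and Slco1a4 (141805438 to 141856284), both on the minus strand, had sites of similar height and none inside either gene. At Slco1a1 the peak over the start reached a fold of 10.7 (9.49 to 12.1), its summit 765 bp upstream, and sites of 11.1 and 9.52 followed at 13886 and 45782 bp upstream. At Slco1a4 the peak over the start reached a fold of 11.0 (9.70 to 12.5), its summit 1800 bp upstream, followed by 11.9 at 12747 bp and 9.98 at 19883 bp upstream. These last 3 lie between the genes and were also within 50 kb of the downstream end of Slco1a1. The 6 sites of Slco1a1 thus ran only from 9.52 to 11.9, the narrowest range of the 9 genes. The 4 of Slco1a4 ran from 8.14, inside Gm5724, to 11.9.

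Among the canalicular exporters, Abcb11 (chromosome 2, 69238282 to 69342616, minus strand) had the highest start-proximal fold of the 9 genes. Its peak from 69340043 to 69344235 had a fold of 31.2 (29.1 to 33.5) and ranked 204 of all 27929 ZT10 peaks, and its summit lay 258 bp upstream of the start, 8 bases outside the printed window. The second strong site had a fold of 36.4, ranked 93 and lay 43841 bp upstream inside Dhrs9, which encodes a short-chain dehydrogenase. Both summits held 789 fragments (734.9 to 846.0), and the folds differ because the local background was 5.0 at the start and 4.14 in Dhrs9. The other 4 sites were weak, with folds of 4.24 to 5.06, and no summit lay inside the 104.34 kb of Abcb11, the longest gene of the set.

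At Abcc2 (chromosome 19, 43782308 to 43838332, plus strand) binding spread over wide peaks around the 5′ end. The peak over the start ran from 43774874 to 43788991, wider than 99.6% of ZT10 peaks, at a fold of 20.9, and had its summit 1732 bp upstream. Sites of 14.0 at 15125 bp and 11.0 at 31230 bp downstream lay inside the gene, under peaks of 7900 and 8058 bp. Upstream, sites of 15.1 and 8.23 lay inside Cutc, and on the far side a site of 6.59 lay inside Dnmbp. All 6 folds were above 6, unlike those of Abcb11, of which 4 were near the lowest fold of the list.

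Abcb4 (chromosome 5, 8893614 to 8959226, plus strand) had 12 sites, more than any other member, at 7.25 per 100 kb. Its strongest site, with a fold of 27.7, lay 20141 bp upstream of the start from 8871625 to 8874878, and the downstream end of the paralog Abcb1b, a multidrug exporter gene, is nearer to it at 7266 bp. Inside Abcb4 the folds were 18.3 (16.6 to 20.2) at 35027 bp, 13.6 (12.1 to 15.2) at 8853 bp, 5.98 and 4.42. The peak of 13.6 was 12179 bp wide and reached over the start, while the summit closest to the start, 7570 bp upstream, had a fold of 4.12. A further 4 sites, of 4.57 to 10.7, lay in or beside Crot, the neighbouring peroxisomal carnitine octanoyltransferase gene. The remaining sites had folds of 9.20, inside Abcb1b, and 4.36, at 16401 bp upstream of the start. Abcb4 therefore combined several summits within the gene with no summit closer than 7570 bp to its start.

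Abcg5 (chromosome 17, 84658174 to 84683011, minus strand) and Abcg8 (84676302 to 84700333, plus strand) are transcribed head to head from starts 110 bp apart. A peak from 84681235 to 84685737 covered both starts, at a fold of 17.8 (16.1 to 19.7). Its summit lay 238 bp downstream of the Abcg8 start and 348 bp upstream of that of Abcg5. Farther into Abcg8 the folds were 19.6 at 6458 bp and 12.1 at 10858 bp, so that 3 summits lay within 11 kb on the Abcg8 side. Abcg5 held only 1 summit, of 5.39. A site of 16.9 and weak sites of 4.33 and 4.60 lay downstream of Abcg5 inside Dync2li1. Sites of 9.06 and 11.2 lay inside Lrpprc beyond Abcg8. The folds of 17.8 and 19.6 did not differ beyond counting error. A second listed start of Abcg8, inside Abcg5, was not under a peak.

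**Figure D3:**
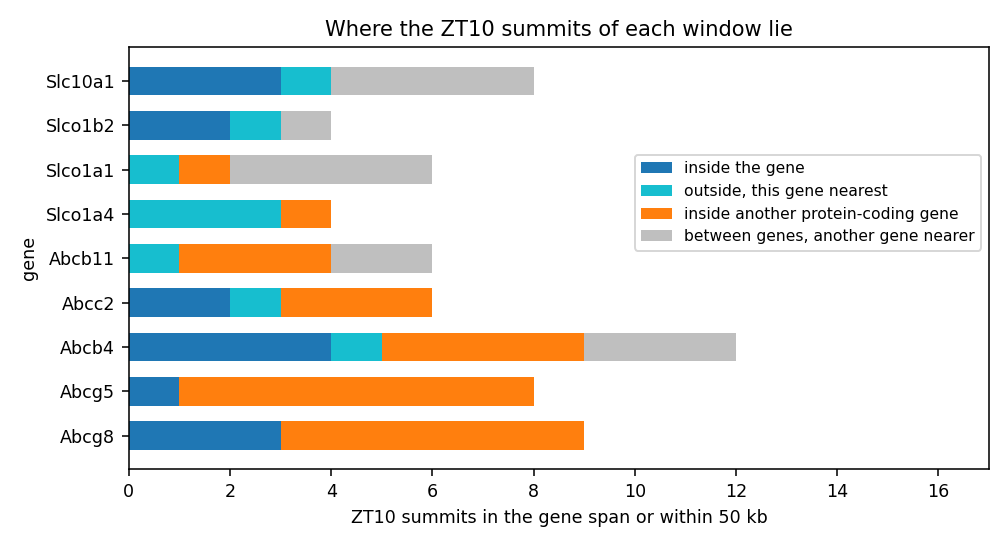
Number of ZT10 summits in the window of each gene by place, as stacked bars: inside the gene, outside with this gene nearest, inside another protein-coding gene, or between genes with another gene nearer. Abcb11, Slco1a1 and Slco1a4 have no summit inside the gene, and Abcb4 has the most.

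Over the whole set, 15 of the 52 sites lay inside a member, 9 lay outside with a member as the nearest gene, 17 lay inside another protein-coding gene and 11 were nearer to another gene. The same split of all ZT10 peaks is not given here, so these counts have no background. A summit inside the gene was present at 6 of 9, against 36.2% of protein-coding genes, which were not matched for length. A listed start lay under a peak at 9 of 9, against 38.0% of the 17274 protein-coding genes with a listed start, and a summit lay within 1 kb of a listed start at 5 of 9 (Slc10a1, Slco1a1, Abcb11, Abcg5 and Abcg8), against 34.5%. The difference between these counts comes from wide peaks whose summits lie elsewhere, at Slco1b2, Slco1a4, Abcc2 and Abcb4. The 24 sites with a member as nearest gene had a median fold of 11.0, the other 28 one of 8.65, and all ZT10 peaks one of 6.81.

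By role, the 19 distinct sites of the uptake carriers had a median fold of 10.3 and the 33 of the canalicular exporters one of 9.06, while folds of 15 or more were reached by 3 and 9 of them. The medians were thus close, and more of the strongest sites lay in the windows of the exporters, which also hold more sites, a description with no test. Some of these strong sites lay inside or nearer to another gene, among the exporters (as in Dhrs9) and the uptake carriers (near Srsf5) alike. Of all 52 sites, 12 had a fold of 15 or more (23.1%), against 10.9% of all ZT10 peaks. Their median width was 3086 bp, against 1679 bp for the list, and summits held 85 to 789 fragments. Local background was at the lowest value of the list at 42 of the 52, and at 87.0% of all ZT10 peaks. It was above that value at 10 of the 52, with a maximum of 9.0 at the Dnmbp site of Abcc2, so most folds rank as their fragment counts do.

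**Figure D4:**
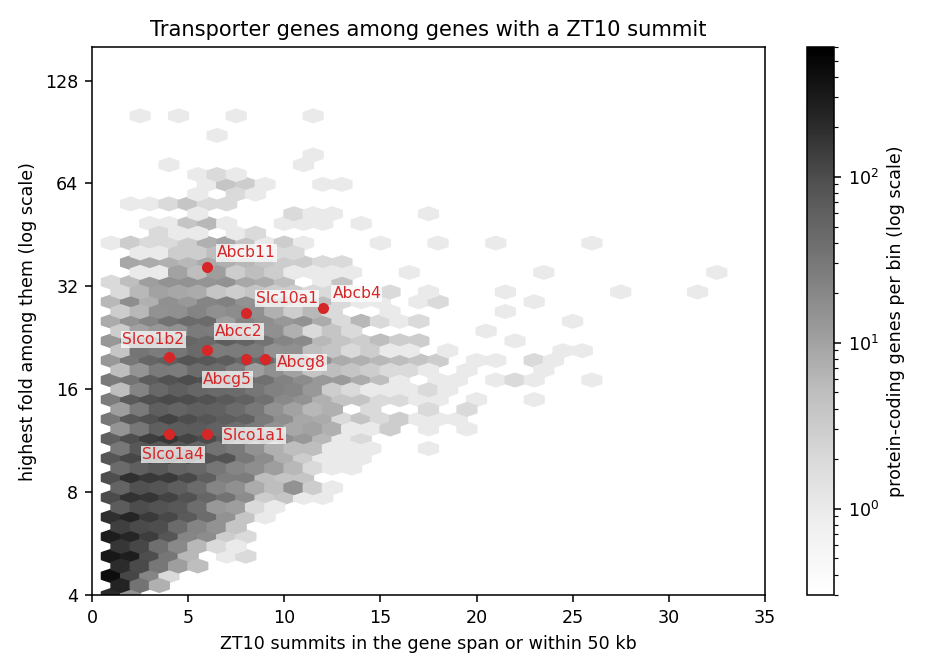
Number of ZT10 summits in the span or within 50 kb (x) and the highest fold among them (y, log scale) for protein-coding genes with at least 1 summit, as grey bins shaded by gene number on a log scale, with the 9 transporter genes in red. Abcb11 is highest in fold and Abcb4 in number among the 9.

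At ZT22 no summit lay in any of the 9 windows, as at nearly all genes, since only 0.157% of protein-coding genes (34 of 21631) had one. The nearest was 1170345 bp from Abcc2, and chromosomes 2 and 6, which hold Abcb11 and the 3 Slco1 members, had no ZT22 peak. The lowest fold in the ZT22 list was 4.08, and binding below the limit of that list was not measured. From the worth of a fragment in each list, depth at ZT22 was 0.97 of that at ZT10, provided that 1 control was used for both. The absence therefore extends to sites as strong at ZT10 as the 36.4 near Abcb11, but its size could not be given.

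Of the 25 other bile acid and sterol transport genes compared, all had a ZT10 site (100%, against 70.5% of protein-coding genes), with a median highest fold of 13.4, and 9 had a site of fold 15 or more (18.4% of protein-coding genes). The highest were Scarb1, the receptor for high-density lipoprotein (41.7), Abcb1b (27.7, the site shared with Abcb4) and Abcc4, a basolateral exporter (23.3). Abcb1b and Slco1c1, at 19.9 through the site upstream of Slco1b2, reach 15 only through sites counted above, and without those sites 24 of the 25 genes had a site, 7 reached a fold of 15 and the median highest fold was 12.3. Of the 21 bile acid synthesis enzymes and regulators all had a site and 15 reached a fold of 15, with a median highest fold of 19.6. Nr0b2, the repressor SHP (36.4), Cyp8b1, the sterol 12α-hydroxylase (27.9), and Acox2, a peroxisomal oxidase of side-chain shortening (26.4), led that list. Listed starts lay under a peak at 11 of the 18 other transport genes that had one and at 14 of 14 synthesis genes, against 38.0%. None of the genes in either list had a ZT22 site.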

How the data were processed

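ChIP-seq was done on mouse liver nuclei fixed with formaldehyde and EGS, and Tn5 tagmentation made the libraries, per the labels' protocols. Per the submitters' processing notes, which give neither role nor order, the tools included MACS2 2.1.2, BWA 0.7.17, Picard 2.18.12, deepTools 3.3.0 and SAMtools 1.9, and the build was mm10. Which control was used for the peaks is not stated there. Each peak list was made by the authors from 4 pooled samples, per the labels. The deposited fold is the ratio of the summit to local background, and the deposited lists also hold a −log10 p, a −log10 q and a score per peak, which is a whole number made from the q. Fold and −log10 p are the peak caller's own values for pooled data, and the score was not used. The lowest fold listed at ZT10 was 4.006, and 22112 of 50041 peak numbers have no row. Why those rows are absent is not known. Calls of lower fold and calls under the absent numbers are not part of these counts.

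Summits were assigned to RefSeq spans of GRCm38.p6 protein-coding genes, all 9 members matched, and starts came from the promoter table (7 members with 1 start and 2 with 2). Fragments at a summit were solved from fold and −log10 p with a pseudocount of 1 and a lowest background of 4.14, which left 40 ZT10 peaks unsolved, and 99.0% of the solved ZT10 peaks came out within 0.1 of a whole number. Intervals are exact Poisson intervals at 95% for the fragments, with the background taken as known. The solver was tested on simulated data. Analyses used Python 3.11.15, pandas 2.3.3, numpy 2.4.6 and scipy 1.17.1. Lists were compared by counts and medians only, with no test. The members, comparison lists and thresholds were chosen with earlier results of these data known. Named were all members, with their sites of highest fold, of fold 15 or more and closest to a start, the other sites singly or by range, and the 3 genes of highest fold in each comparison list. Alternatives were reaches of 10 and 100 kb, a −log10 q of at least 10, peak overlap in place of summits, 1 row per interval, the nearest gene only, and strength as −log10 q.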

Additional observations from a re-analysis of the deposited data

How the results depend on the processing

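No paired analysis was possible because each list is 1 pool of 4 samples, which also leaves no replicate to omit. Windows under summits were not searched for motifs, since no genome sequence was used here, so that alternative was not run. All 9 genes had a ZT10 site with reaches of 10 and 100 kb, when peaks under a −log10 q of 10 were dropped and with the nearest gene only. Of all protein-coding genes, 70.5% had a summit within the reach of 50 kb and 36.2% had one inside the span. No such share is given for the alternatives, so 9 of 9 under them has no matching background. The 52 sites fell to 24 with a reach of 10 kb and to 24 with the nearest gene only, by construction of these narrower rules. Per gene, the number fell by over 1.5 times at all 9 with 10 kb, to between 1 and 5. A fold of 15 was then reached near 6 of 9, without Slco1b2. The share of all protein-coding genes with such a fold is given for 50 kb only (18.4%), so this 6 of 9 has no matching background. Sites numbered 73 at 100 kb, 39 after that drop and 52 by peak overlap. Keeping 1 row per interval removed none and says nothing of stability. The median of the highest folds was 18.8 to 19.9 over 3 alternatives. The highest fold moved past its counting interval at 4 genes with a reach of 10 kb, at 4 with the nearest gene only and at 1 at 100 kb, most at Slco1b2 (7.74 with 10 kb) and Abcg5 (5.39 with the nearest gene only, where its shared sites go to Abcg8). Abcb11 was among the 4 in both cases, although its 2 summits held 789 fragments each. Its fold moved through local backgrounds of 4.14 and 5.0, whose error the interval does not cover. No ZT22 site appeared with reaches of 10 or 100 kb or by peak overlap. Starts under a peak stayed at 9 of 9 when peaks under a −log10 q of 10 were dropped, with no share of all genes given for that drop. This check was chosen after seeing the data, as were the count of genes with at least 4 sites within 10 kb (4 of 9) and that of other transport genes with a site of fold 15 without the members' sites (7 against 9).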

Other observations

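The Slco1 genes on chromosome 6 lie in 1 cluster that runs over 798.6 kb from Slco1c1 to Slco1a5, with 9 protein-coding genes in it, Gm5724, Gm6614 and Iapp among them. It held 15 ZT10 summits, or 1.88 per 100 kb, of which 10 lay between genes and 5 inside one, in Slco1b2, Gm5724 and Gm6614. This density is per length of the cluster, unlike the densities per gene window above. It and the split by place have no background here. Folds in the cluster ran from 4.01 to 19.9 with a median of 9.52, and the highest was the site upstream of Slco1b2. Slco1a5 and Slco1a6, at the far end, had 1 summit each in their windows, with folds of 6.03 and 5.80.

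Of the summits farthest from a gene but within the reach of 50 kb, the lowest fold was 4.24 (Abcb11, at 47467 bp) and the highest 14.0 (Slco1b2, at 38469 bp). Of the next summits outside, those of 6 genes lay at 50905 to 69444 bp, with folds of 4.01 (Slco1a1, at 50905 bp) to 18.8 (Abcc2, at 56647 bp). At Slco1b2, Slco1a4 and Abcg8 the next summit lay at 88112 to 91443 bp, so no site stood just outside the reach.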
